A study of Caenorhabditis elegans with 2 samples.

Results

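The nuclear hormone receptor genes of Caenorhabditis elegans were examined for regions listed from a chromatin immunoprecipitation of NHR-12, 1 member of their own family. Members were the protein-coding genes whose symbol is nhr- followed by a number, 269 of the 19973 protein-coding genes annotated on the nuclear chromosomes. Chromatin immunoprecipitation with sequencing (ChIP-seq) had been done on whole L1 larvae, the first larval stage, of strain OP318 (unc-119(ed3) III; wgIs318), in which a stably inherited transgene supplies NHR-12 fused at its C terminus to GFP and FLAG. The animals were a pool of both sexes of unknown age. There was 1 group with 2 biological replicates, no second condition and no untagged strain among the samples. Every sample therefore carried the unc-119(ed3) allele and the tagged receptor. Neither the sequence that drives the transgene nor its extent is stated in the labels. No test between groups could be made, and the values below are descriptions.

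Nuclear hormone receptors are transcription factors that bind DNA through a zinc finger domain, and many bind small lipophilic molecules through a second domain. Nematodes have an unusually large set of these genes, most of them related to the vertebrate receptor HNF4. Many C. elegans members lie side by side on chromosome V, where copies arose by duplication. Some members control moulting, development or fat metabolism, and most have no described role.

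The measurements are lists of regions. Each replicate had a list of regions that the authors describe as peaks and background. A joint list, also of peaks and background, was made from both replicates together. The optimal IDR set held the joint regions that passed the authors' threshold on the irreproducible discovery rate. On the nuclear chromosomes these held 26857 regions for replicate 1, 30000 for replicate 2, 3798 in the joint list and 146 in the IDR set. The lowest q-value was 0.0845 in replicate 1, 0.00594 in replicate 2 and 0.0827 in the joint list, as deposited. The signal value of a region has no stated scale, so values and ranks are read within 1 list, where rank 1 is the strongest nuclear region. Read depth is unknown.

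A region was counted for a gene when its midpoint lay in the promoter window, which spans the 500 bp before the 5′ end and the 200 bp after it, or elsewhere in the gene body. The IDR set placed a region at 3 of the 269 receptor genes (1.12%), where 0.651% of all protein-coding genes had one. They lay in the windows of nhr-47 and nhr-256 and in an intron of nhr-87. The next strongest joint region at a receptor gene, at nhr-86, ranked 148 and fell just below that set. The middle of these 4 regions is shown first because they are the strongest joint regions of the family. Sequences are RefSeq's for WBcel235, the assembly of ce11, on the strand of the gene, 5′ to 3′, without annotated UTR bases. Capitals mark the octamer ACTACAAA on either strand or a receptor half-site (AGGTCA or AGTTCA).
nhr-47, 159 to 1 bp upstream of the 5′ end (chrV:5505094-5505252, + strand): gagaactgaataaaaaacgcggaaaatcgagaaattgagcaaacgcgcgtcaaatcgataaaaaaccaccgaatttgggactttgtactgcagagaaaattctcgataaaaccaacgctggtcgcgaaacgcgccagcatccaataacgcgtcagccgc
nhr-256, 179 to 1 bp upstream (chrV:1743592-1743770, + strand): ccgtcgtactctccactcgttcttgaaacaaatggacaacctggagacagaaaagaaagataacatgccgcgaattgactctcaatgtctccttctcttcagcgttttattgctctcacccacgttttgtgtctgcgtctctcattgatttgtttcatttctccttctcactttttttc
nhr-86, 268 to 68 bp upstream (chrV:2066918-2067118, − strand): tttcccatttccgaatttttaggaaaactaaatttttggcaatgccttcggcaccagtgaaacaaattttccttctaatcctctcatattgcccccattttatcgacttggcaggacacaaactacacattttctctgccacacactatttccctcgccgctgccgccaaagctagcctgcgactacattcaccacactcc
nhr-87, 538 to 738 bp downstream, intron (chrIV:1624567-1624767, + strand): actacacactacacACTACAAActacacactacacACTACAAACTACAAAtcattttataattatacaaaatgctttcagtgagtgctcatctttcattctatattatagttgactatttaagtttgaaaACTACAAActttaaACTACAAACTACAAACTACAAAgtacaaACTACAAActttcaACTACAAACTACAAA

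The promoter stretches of nhr-47, nhr-256 and nhr-86 were richer in G and C than the nuclear genome, with 45.9%, 42.5% and 44.8% against 35.4%. The nhr-87 intron was poorer, with 27.9%, and was made largely of tandem copies of a short unit. It held the octamer ACTACAAA 10 times. This octamer was chosen after the sequence had been seen. Of the 3798 joint regions, 23 (0.606%) held at least 5 copies in the 201 bp around the midpoint, and the most in any was 14. None of the 4 sequences held AGGTCA or AGTTCA, the half-site of many nuclear receptors and a variant of it, on either strand.

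nhr-47 (WBGene00003637, chrV:5505253-5509956, + strand) had the strongest window region of the family. The joint midpoint lay 59 bp upstream of the 5′ end with a signal of 46.1 and rank 84. The region was at a like place in each replicate, with a signal of 21.0 and rank 116 in replicate 1 and a signal of 23.9 and rank 118 in replicate 2. The same midpoint also fell in the window of dnj-19, a DnaJ-family chaperone gene, and within 200 bp of the noncoding RNA genes C24G6.10 and C24G6.12. It was the only joint region in the window of a receptor gene that another protein-coding gene shared, and which of these genes it belongs to cannot be told from the lists.

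nhr-256 (WBGene00022805, chrV:1743771-1747981, + strand) had its joint midpoint 79 bp upstream of the 5′ end, with a signal of 45.2 and rank 94. Replicate 2 ranked the region higher than replicate 1 did, at 93 with a signal of 25.4 against 676 with a signal of 15.3. The authors' q-value was 0.00594 in replicate 2 and 0.231 in replicate 1.

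nhr-86 (WBGene00003676, chrV:2061106-2066850, − strand) encodes an HNF4-like receptor with a part in the intestinal defence against bacteria. Its window region lay 168 bp upstream with a joint signal of 37.0, against a lowest signal of 37.1 in the IDR set. Its rank was 691 in replicate 1, with a signal of 15.3, and 342 in replicate 2, with a signal of 17.0. A separate joint region, with a signal of 20.4, lay in an intron 5017 bp downstream of the 5′ end. That region had rank 376 in replicate 1, and the nearest midpoint of replicate 2 was 5114 bp away.

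nhr-87 (WBGene00003677, chrIV:1624029-1626705, + strand) held the strongest joint region of any receptor gene, with a signal of 56.1 and rank 51. It lay in an intron, 638 bp downstream of the 5′ end, outside the window. Replicate 1 ranked it 14 of 26857 with a signal of 39.8, and replicate 2 ranked it 239 with a signal of 18.7. It was the strongest region of the family in replicate 1. In replicate 2 the regions at nhr-256 and nhr-47 were stronger.

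**Figure D1:**
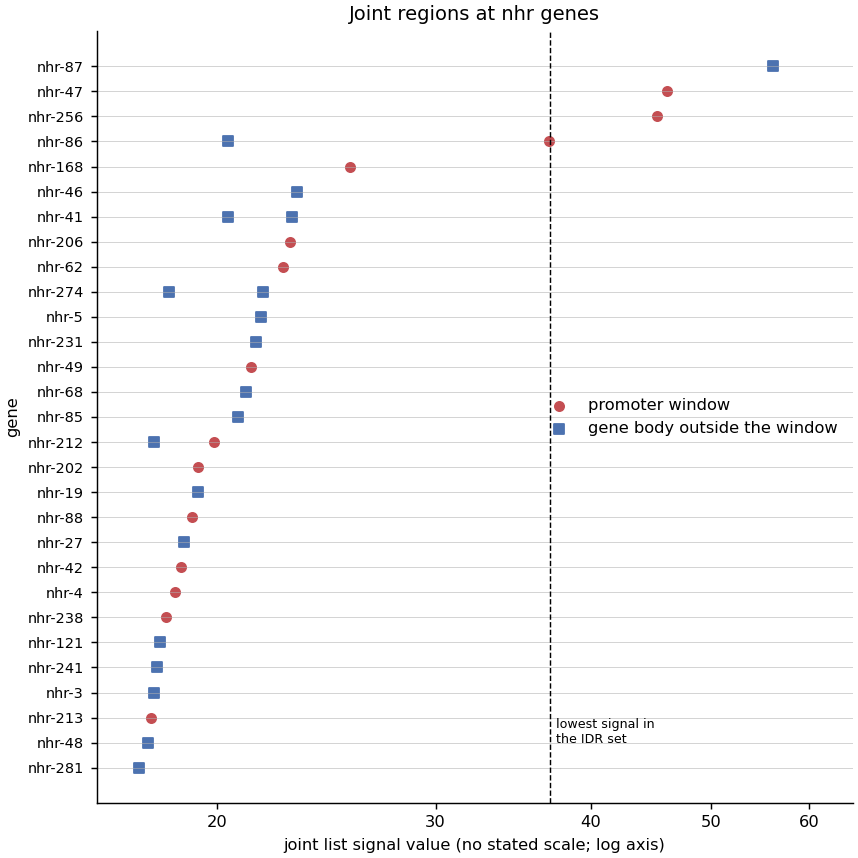
Joint list signal value (log axis) of the 33 joint regions at 29 receptor genes, ordered by the strongest region of each gene; circles are window regions and squares are gene body regions. The regions of nhr-87, nhr-47 and nhr-256 lie right of the dashed line at 37.1, nhr-86 lies on it at 37.0, and the other regions lie at 25.6 or below.

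The tagged gene itself was among the members without a region. nhr-12 (WBGene00003611, chrV:10082133-10084049, − strand) had no region in its window or body in any of the 4 lists. This was shared by 59 of the 269 receptor genes (21.9%), against 27.7% of all protein-coding genes and 33.7% of those on chromosome V. The nearest midpoint was 21282 bp from the gene in replicate 1, 19625 bp in replicate 2 and 45809 bp in the joint list. With the replicates pooled, nhr-12 lay in a stretch of 60.3 kb without a midpoint (chrV:10043354-10103674). This was the third longest of 56806 such stretches between neighbouring midpoints, whose median was 1.15 kb. Taken alone, replicate 1 left 62.1 kb free around nhr-12, the 5th longest of its stretches. Replicate 2 left 60.3 kb, the 6th longest of its own. The joint list did not set nhr-12 apart in this way. Its stretch there was 115.9 kb, the 87th longest of 3792, against a median of 67.9 kb at receptor genes. In that list 76 receptor genes, nhr-12 among them, lay in a stretch at least as long.

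The free stretch of the pooled replicates held 18 protein-coding genes, among them the receptor genes nhr-192 and nhr-205. The longest free stretches of the pooled replicates, of 224.1 and 92.4 kb, were also on chromosome V and held no receptor gene, the shorter of them holding histone genes. The strain carries extra nhr-12 sequence in its transgene, and the labels name a possible control library. Whether the transgene, a control or mapping left this stretch empty was not tested. An empty locus in these lists therefore does not show that the tagged receptor was absent from its own gene. Leaving nhr-12, nhr-192 and nhr-205 aside, the longest free stretch of the pooled replicates at a receptor gene was 30.5 kb on chromosome I, shared by nhr-73, nhr-244 and nhr-259. In replicate 1 alone nhr-248 lay in a free stretch of 59.5 kb, against 3.1 kb in replicate 2.

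**Figure D2:**
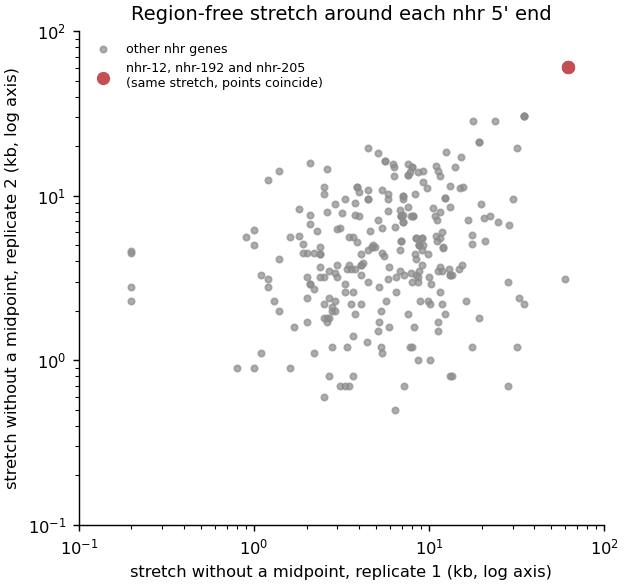
Length of the stretch without a region midpoint around the 5′ end of each receptor gene in replicate 1 (x axis, kb, log) and replicate 2 (y axis, kb, log). The single red point stands for nhr-12, nhr-192 and nhr-205 at 62.1 and 60.3 kb, far above the median of the family, 6.3 kb in replicate 1 and 4.7 kb in replicate 2.

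Over the whole family, regions were about as frequent at receptor promoters as at those of other genes. A joint region lay in the window of 14 receptor genes (5.2%), where 4.98% of all protein-coding genes had one. For the IDR set it was 2 receptor genes (0.743%) against 0.511%, and 1 with a region in the body (0.372%) against 0.14%. Replicate 1 placed a region in 55 windows (20.4%) against 21.4%, and replicate 2 in 67 (24.9%) against 24.8%. Both replicates had a region in the window of 22 receptor genes (8.18%), against 8.16% of all genes. With midpoints no more than 100 bp apart the count was 14 (5.2%), against 4.34%. These shares lie near the background, so they show no preference for or against the promoters of the family.

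Among the 1000 strongest regions of each replicate, receptor promoters held few. Replicate 1 had 3 of them, at nhr-47, nhr-256 and nhr-86 (1.12%, against 1.5% of all genes). Replicate 2 had the same 3 and nhr-49 (1.49%, against 1.98%).

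**Figure D3:**
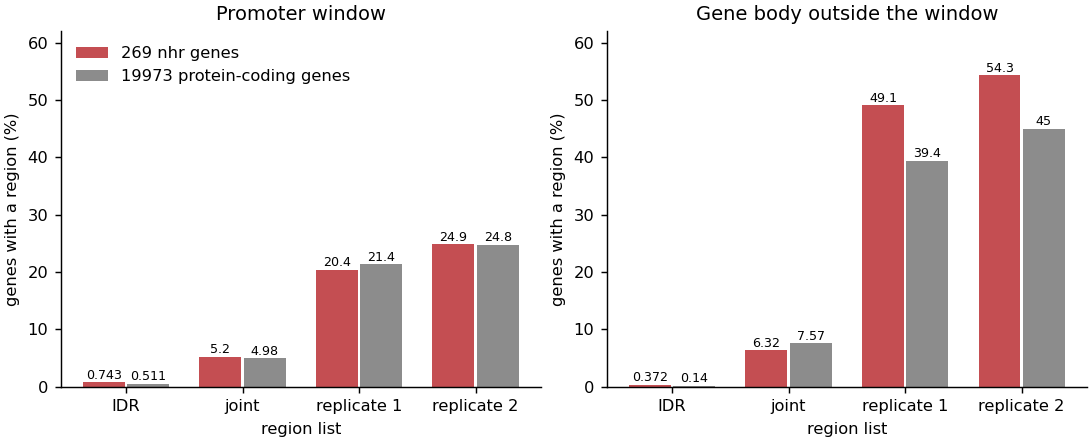
Share of genes (y axis, percent) with a region in the promoter window (left) or in the gene body outside it (right) in each of the 4 lists, for 269 receptor genes (red) and 19973 protein-coding genes (grey). The window shares of both groups are alike in each list, and the body shares of the receptor genes are higher in the replicate lists (49.1% and 54.3% against 39.4% and 45.0%) and lower in the joint list (6.32% against 7.57%).

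The 12 other receptor genes with a joint window region had signals from 17.7 to 37.0, against a range of 17.2 to 130 in the joint list. Their deposited joint q-values were 0.0827 at nhr-86, 0.307 at nhr-168 and from 0.556 to 0.943 at the rest. After nhr-86 the strongest was nhr-168, with a signal of 25.6 over a UTR exon 76 bp downstream of the 5′ end and ranks of 2399 and 2025 in the replicates. It was followed by nhr-206 (signal 22.9) in an intron 156 bp downstream. nhr-62, required for the longer life of animals on a restricted diet, had a signal of 22.6 at 415 bp upstream. nhr-49, a regulator of fatty acid desaturation and oxidation, had a signal of 21.3 at 341 bp upstream.

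The replicates differed at several of these genes. At nhr-49 replicate 2 ranked the region 606 with a signal of 14.8, while the nearest midpoint of replicate 1 was 1883 bp away. At nhr-4 (joint signal 18.5) replicate 2 ranked the region 1636, and no midpoint of replicate 1 lay within 745 bp. At nhr-212 (joint signal 19.9) the order was the other way, with rank 2498 in replicate 1 and 10943 in replicate 2. At nhr-202 (joint signal 19.3) the ranks were 18304 in replicate 1 and 2234 in replicate 2. The remaining members of the group, nhr-88, nhr-42, nhr-238 and nhr-213, had joint signals of 19.1, 18.7, 18.2 and 17.7. At nhr-88 the nearest midpoints were 250 bp away in replicate 1 (rank 22691) and 159 bp in replicate 2 (rank 1206). At nhr-42 and nhr-62 the nearest replicate 2 midpoint was 122 and 150 bp away, and nhr-62 had rank 12764 in replicate 1. At nhr-238 and nhr-213 both replicates had a midpoint within 100 bp.

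Of the 33 joint regions in windows and bodies of receptor genes, 26 had a replicate 1 midpoint within 100 bp, 25 a replicate 2 midpoint and 20 both. Over all 3798 joint regions the shares were 74.9%, 72.4% and 50.4%. A further 6 receptor genes had replicate midpoints within 100 bp of each other in the window but no joint region. These were nhr-2, known from the early embryo, and nhr-100, nhr-154, nhr-179, nhr-216 and nhr-286. Their regions were weak, with ranks from 14517 to 24363 in replicate 1 and from 15176 to 28952 in replicate 2. Matched window regions, with or without a joint region, were at 5.2% of receptor genes and 4.34% of all genes. The share of all genes with matched regions but no joint region was not counted.

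Joint midpoints in the 200 bp downstream of the 5′ end came to 1.86 per 100 receptor genes, against 0.771 per 100 protein-coding genes. Between 400 and 200 bp upstream the order was reversed, with 0.743 against 1.75. These receptor values rest on 5 and 2 regions. In the replicate lists, where more regions stand behind each value, the receptor genes were not higher in the 200 bp downstream, with 4.83 against 5.14 in replicate 1 and 5.58 against 6.17 in replicate 2. Between 400 and 200 bp upstream they had 6.69 against 7.31 and 8.18 against 8.51.

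**Figure D4:**
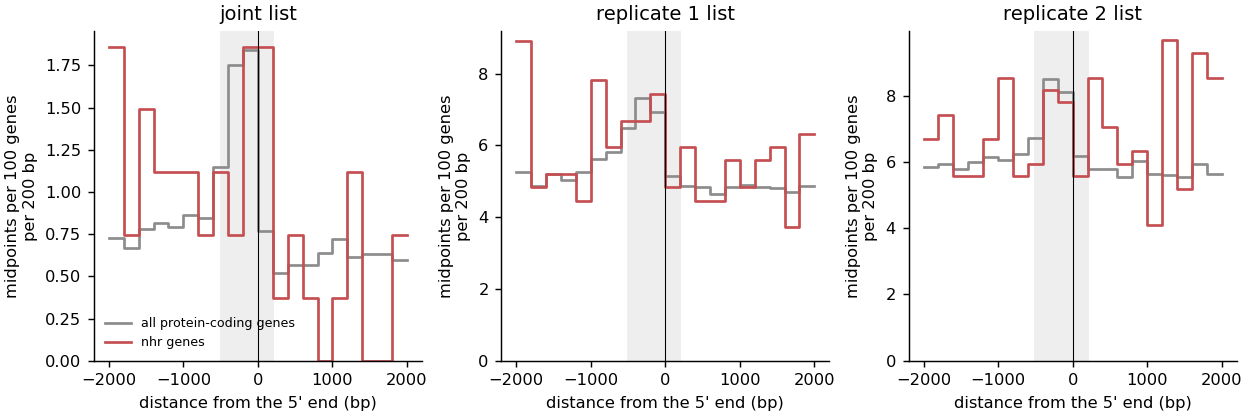
Region midpoints per 100 genes in steps of 200 bp (y axis) against distance from the 5′ end (x axis, bp, negative is upstream) for receptor genes (red) and all protein-coding genes (grey) in the joint and both replicate lists; the shaded band is the promoter window. The grey line is highest within 400 bp upstream of the 5′ end, at 1.84 in the joint list, 7.31 in replicate 1 and 8.51 in replicate 2, and the red line scatters around it.

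Gene bodies gave a different picture in the replicate lists. Outside the window, 132 receptor genes (49.1%) had a replicate 1 region in the body, where 39.4% of all protein-coding genes had one, and 146 (54.3%) had a replicate 2 region, against 45.0%. Receptor genes were longer, with a median of 2309 bp against 2027 bp. Per kb of gene there were 0.253 body regions in receptor genes and 0.235 in all genes for replicate 1, and 0.316 against 0.269 for replicate 2. In the joint list the order was the other way, with 0.0205 against 0.0288 per kb. There 17 receptor genes (6.32%) had a body region, against 7.57% of all genes. Window and body together, 29 receptor genes (10.8%) had a joint region, against 2401 of all 19973 genes (12%). That order turned when as many of the strongest regions were taken from 1 replicate, with 13.8% against 11.8% in replicate 1 and 14.9% against 12.4% in replicate 2. In replicate 1 it was 162 (60.2%) against 51.5%, and in replicate 2 it was 175 (65.1%) against 57.9%.

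Length was then held closer by splitting genes into 3 classes with equal shares of the receptor genes. Among genes shorter than 1970 bp, 26.7% of receptor genes had a replicate 1 body region against 17.9% of all genes, and 33.3% against 22.4% in replicate 2. In this class receptor genes were still longer, with a median of 1676 bp against 1192 bp. In the middle class the shares were 49.4% against 39.3% in replicate 1 and 49.4% against 47.8% in replicate 2. Among genes of 2881 bp or more they were 71.1% against 70.2% in replicate 1, and in replicate 2 the region was present at 72 of 90 receptor genes and 75.9% of all genes. How much of the excess is due to length beyond these classes was not tested.

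Of the 19 joint body regions 15 lay in introns, 3 in coding exons and 1 in a UTR exon. The intronic share was 78.9%, against 70.0% of the joint body regions of all protein-coding genes. In replicate 1 it was 145 of 234 against 66.9%, which is lower, and in replicate 2 62.7% against 60.5%, so the lists did not give 1 order. Introns make up 56.6% of the summed length of the receptor genes and 53.7% of that of all genes. After nhr-87 the strongest body regions were in introns of nhr-46 (signal 23.2), nhr-41 (rank 809), nhr-274 (signal 21.8) and nhr-5 (signal 21.7). The deposited joint q-values of these regions ran from 0.544 at nhr-46 to 0.654 at nhr-5. The nhr-274 region ranked 146 in replicate 1, with a signal of 20.1, but 19853 in replicate 2, with a signal of 6.24. The midpoint in nhr-5 lay within 200 bp of 4 annotated piRNA genes.

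Sequence that RefSeq soft-masks as repetitive or low in complexity was common under the body regions. It made up a mean of 50.5% of the 201 bp around the 19 body midpoints and 31.1% around the 14 window midpoints, against 39.7% over all joint regions and 35.7% of the nuclear genome. It covered all of the window around the intronic midpoint of nhr-86 and 90.0% of that around the stronger midpoint of nhr-41. It covered none of the window in nhr-27 and 22.9% of that in nhr-281. The joint body regions of all protein-coding genes were not measured in this way, so no comparison with other gene bodies is made.

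nhr-27 on chromosome X spans 102756 bp, the longest annotated protein-coding gene, and held 22 regions of replicate 1 and 30 of replicate 2. At 0.214 and 0.292 regions per kb this is close to the density of all gene bodies. A single one of its regions, 25162 bp downstream of the 5′ end, was in the joint list, with a signal of 18.8.

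Receptors with relatives across animals were a list of 9: nhr-6 (NR4A), nhr-8 and nhr-48 (relatives of the vitamin D receptor), nhr-23 (ROR) and nhr-25 (FTZ-F1), both needed for moulting, nhr-41 (TR2 and TR4), nhr-67 (tailless), nhr-85 (Rev-erb) and nhr-91 (GCNF). None of these 9 had a joint region in its window, where 4.98% of all genes did. A joint body region was present in 3 of the 9, against 7.57% of all genes and 16.2% of genes of 2881 bp or more, the length class of all 9. nhr-41 had 2 of them, with joint ranks of 809 and 1561. nhr-85 had an intronic region with a signal of 20.8, rank 2775 in replicate 2, and no replicate 1 midpoint within 2103 bp. nhr-48 had 1 with a signal of 17.6. nhr-8 and nhr-23 had no region in any list. The median length of the 9 was 5531 bp.

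Of 10 receptors known for roles in metabolism, 3 had a joint window region, nhr-49, nhr-62 and nhr-86, where 4.98% of all genes had one. The median length of the 10 was 4087 bp. A joint body region was present at 2, against 7.57% of all genes and 16.2% of genes of 2881 bp or more. These were nhr-86 and nhr-68, the latter a regulator of propionate breakdown. Its intronic region had a joint signal of 21.1 and rank 352 in replicate 1. The nearest replicate 2 midpoint was 174 bp away and ranked 24942. Of the other 6, nhr-10, nhr-64, nhr-66, nhr-80 and nhr-114 had regions only in the replicate lists, and nhr-69 in none. The list was drawn up with earlier results of these data known, and nothing about metabolism is read from 3 members.

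The receptor genes daf-12, fax-1, odr-7, sex-1 and unc-55 carry no nhr symbol and were looked at beside the family. None of these 5 had a region of any list in its window. Of all protein-coding genes 4.98% had a joint window region, 21.4% a replicate 1 one and 24.8% a replicate 2 one. daf-12, the steroid receptor of the dauer decision, had 3 joint body regions with signals up to 20.5 over its 30968 bp. The other 4 had no joint region. A joint body region was present at 7.57% of all genes and 16.2% of genes of 2881 bp or more, the length class of daf-12.

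Chromosome V carries 167 of the 269 receptor genes. A joint window region was found at 10 of them (5.99%), against 204 of the 4994 protein-coding genes of that chromosome (4.08%). On the other chromosomes it was 4 of 102 (3.92%) against 5.27%. Joint body regions went the other way, with 5 on chromosome V (2.99% against 5.29% of its genes) and 12 elsewhere (11.8% against 8.32%). Of the 14 receptor genes whose window held matched regions of both replicates, 12 were on chromosome V (7.19% of those there, against 3.74% of all its genes). The other 2 were among the 102 elsewhere (1.96%, against 4.54% of all genes there). The receptor genes of chromosome V were shorter than the others, with medians of 2146 and 3143.5 bp.

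Neighbouring receptor genes were grouped into a cluster where at least 3 had starts no more than 20 kb from one to the next. This gave 25 clusters, 17 of them on chromosome V with 101 receptor genes over 420.2 kb. Region density in these clusters differed between the lists. The joint list had 2.62 regions per 100 kb of cluster, against 3.04 on chromosome V and 3.79 over the nuclear genome. Replicate 1 had 22.4, against 23.9 on chromosome V and 26.8 over the nuclear genome. Replicate 2 was higher in the clusters, with 30.9 against 27.2 and 29.9. Of the 101 clustered genes on chromosome V 6 had a joint region (5.94%), and of the 66 outside clusters 7 did (10.6%), against 9.01% of all protein-coding genes of that chromosome. nhr-47, nhr-256 and nhr-86 were all outside clusters.

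The cluster from nhr-123 to nhr-131, with 12 receptor genes in 45.8 kb, had joint regions at nhr-202 and nhr-212, and 1 of its members had no region in any list. The other clustered genes of chromosome V with a joint region were nhr-238, nhr-42, nhr-206 and nhr-213, each in a different cluster. The cluster from nhr-182 to nhr-226 held 3 joint regions in its span, none of them in the window or body of a receptor gene. The cluster of nhr-12 with nhr-192 and nhr-205 had no region at all. On chromosome IV, nhr-87 belongs to a cluster of 5 receptor genes in 31.4 kb with 3 joint regions, 1 in nhr-87 and 2 in nhr-274. All 5 had a replicate 1 region in the body, against 39.9% of the genes of chromosome IV and 70.2% of all genes of 2881 bp or more. Only nhr-87 and nhr-274 had a replicate 2 region in the body, against 45.2% and 75.9%. All but nhr-87, of 2677 bp, fell in that length class.

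**Figure D5:**
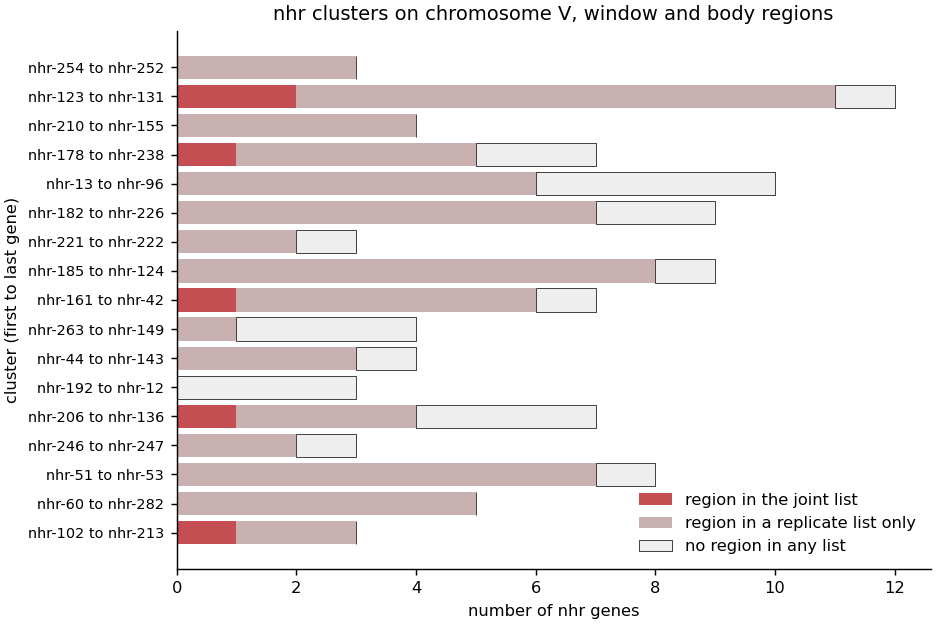
Number of receptor genes (x axis) in each of the 17 clusters on chromosome V (y axis, named by first and last gene), divided by whether the window or body held a joint region (red), a region of a replicate list only (pink) or none (white). Joint regions are present at 6 of 101 genes, 2 of them in the cluster from nhr-123 to nhr-131, and the cluster from nhr-192 to nhr-12 has none in any list.

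Members without a region in window or body in any list numbered 59 (21.9%), against 27.7% of all protein-coding genes. They were shorter than the 210 others, with a median of 1835 bp against 2453.5 bp. In the class under 1970 bp they made up 37.8% of receptor genes, against 43.6% of all genes of that class, and in the class from 2881 bp 8.89%, against 7.61%. On chromosome V 36 of 167 (21.6%) were without a region, against 33.7% of its genes. On chromosome I it was 10 of 23 (43.5%) against 22.0%, and 5 of those 10 belonged to the cluster of 6 from nhr-74 to nhr-245. Counted once each by their strongest evidence, 68 of the remaining members had a window region in 1 replicate and 7 had unmatched window regions in both. A further 100 had replicate regions in the body only. This division was not made for all protein-coding genes, so these counts have no background beside them and say nothing particular to the family.

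Half-sites of nuclear receptors were then counted in the sequence under the regions. AGGTCA or AGTTCA, on either strand, was present in 4 of the 33 windows of 201 bp around joint midpoints at receptor genes (12.1%), against 15.2% of all joint regions and 17.4% of windows 1100 bp to either side of them. The 4 were at nhr-202, nhr-3, nhr-4 and nhr-85. In the IDR set either half-site was present in 13.7% of regions. AGGTCA alone was present in 6.85% of the IDR set, 4.34% of joint regions and 4.86% of the windows to either side. AGTTCA alone went the other way, with 6.85% of the IDR set, 11.3% of joint regions and 13.2% of those windows. In the IDR set each of these half-sites was present in only 10 of 146 regions. In promoters, taken from 250 bp before to 50 bp after the 5′ end, either half-site was present at 29.4% of receptor genes and 27.0% of all genes. A match to 6 letters is a description of the sequence and not a binding site, and the sequence preferred by NHR-12 was not derived here.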

How the data were processed

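The authors deposited narrowPeak lists for ce11: 1 for each replicate and 1 called on both together, which held peaks and background as input for IDR, and the optimal IDR set drawn from them, per the deposited description of derivations. The deposited values used were the peak caller's signal, of unstated scale, and a −log10 q-value, printed here as a q-value. Not given in the sources used here: aligner, peak caller and their versions. The ce10 lists were not used.

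Genes came from Ensembl release 115 (WBcel235), whose chromosomes hold every region end. Mitochondrial regions were left out before ranking. The point given in each region was its midpoint. Counting was done in Python 3.11.15 with numpy 2.4.6 and pandas 2.3.3, and was tested on simulated regions placed at known genes. No significance test was made. The members and lists were chosen with earlier results of these data known. Named genes were nhr-12, all with an IDR region, and the 10 strongest joint window and 5 strongest joint body-only genes. Members of role lists and of the clusters with most receptor genes holding a joint region were also named. Others named were chosen after their values were seen.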

Additional observations from a re-analysis of the deposited data

How the results depend on the processing

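Of 34 alternative settings over 5 counts, 24 left the count within 1.5 times its value. The count of receptor genes with matched window regions of both replicates, 14, was the least steady. It was 9 with 250 bp upstream and 26 with 1000 bp upstream. With midpoints within 50 bp it was 8, and with the stronger 50% of each replicate list 6. The shares for 9, 8 and 6 genes were 3.35%, 2.97% and 2.23%, against 2.52%, 2.78% and 2.16% of all protein-coding genes. With the stronger 50% of each list, window regions were left at 0 receptor genes in the IDR set and 8 in the joint list. Window or body regions of the joint list were left at 16 in place of 29. All protein-coding genes fell too, to 0.22% with an IDR window region. For joint windows it was then 2.97% of receptor genes against 3.12% of all genes, and for window or body 5.95% against 6.55%. Taking as many of the strongest regions from a single replicate gave 1 to 2 receptor genes for the IDR set, the lower number with replicate 1 alone, which leaves out nhr-256. It gave 11 to 16 for joint windows and 37 to 40 for joint windows or bodies. For the IDR set the shares were 0.372% against 0.416% of all genes with replicate 1 alone and 0.743% against 0.476% with replicate 2 alone. For joint windows they were 4.09% against 4.32% and 5.95% against 4.83%. Members without a region numbered 94 to 107 with 1 replicate list only, since fewer regions were counted. The shares were 34.9% against 42.1% of all genes with replicate 2 alone and 39.8% against 48.5% with replicate 1 alone. Against all protein-coding genes, joint windows or bodies turned from below (10.8% against 12%) to above, with 14.9% against 12.4% without replicate 1 and 13.8% against 11.8% without replicate 2. With 1000 bp upstream, matched regions were at 9.67% of receptor genes and 6.42% of all genes. The cause was not tested. Depth is unknown and the lists hold background regions, so a weak region at a gene is no evidence of binding.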
